A study of Mus musculus with 2 samples.

Results

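The genes read here in heart leukocytes were Arg1, Retnla, Chil3, Ear2, Mrc1, Il4ra and Aldh1a2, which are 7 of the 27809 genes of the deposited matrix. They were taken by their symbols, as genes that are commonly listed with the alternative activation of macrophages, and were selected on their measured levels by group and by class of cell, which were already known. These levels are therefore descriptions, with no test. The question asked of them was in which hearts and in which myeloid cells they were high, and whether they were high in the same cells.

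CD45+ cells were isolated from hearts 1 week after transverse aortic constriction (TAC), an operation that narrows the aorta and loads the left ventricle with pressure, or after a sham operation. All mice were male and 8 weeks of age, on a C57BL/6 background. There were 5 groups, namely wild-type (WT) sham, CD3e-/- sham (CD3eKO in the labels), WT TAC, CD3e-/- TAC, and a group of WT mice with TAC labelled as CD8+ T cell depleted, which had received an antibody to CD8 and is called CD8-labelled TAC below. CD3e-/- mice lack a chain of the T cell receptor complex in the whole body, so the change is not limited to the heart. The cells of each group carried 1 hashtag and all 5 hashtags were sequenced as 1 pooled library. Each group is thus 1 sample without a replicate, the number of mice behind a hashtag is not given in the sources used here, and no p-value or standard error between groups can be had.

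Macrophages that receive interleukin 4 or interleukin 13 signal through the interleukin 4 receptor and the transcription factor STAT6, and take up a state called alternative activation that is known from worm infection, allergy and tissue repair. Il4ra encodes the shared receptor chain of both cytokines. Arg1 encodes arginase 1, which splits arginine into ornithine and urea, Retnla encodes the secreted protein RELMα, and Chil3 encodes the chitinase-like protein Ym1. Mrc1 encodes the mannose receptor CD206, Ear2 an eosinophil-associated ribonuclease, and Aldh1a2 an enzyme that makes retinoic acid from retinal. Several of these genes are also known in cells that no such cytokine has reached, for example Mrc1 in resident macrophages of many tissues and Chil3 in monocytes.

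The promoters of Retnla, Chil3, Ear2 and Aldh1a2 are shown because these genes form the patterns described below. Chil3 had its highest level in cells rich in reads of Ly6c2, though many Chil3-high cells lay elsewhere. Retnla, Ear2 and Aldh1a2 shared part of their high cells. RefSeq sequences of build GRCm38.p6 were found for 6 of the 7 members, from 250 bases before to 50 bases after the start of the gene, while Arg1 had no entry. The stretches are chr16:48842359-48842658 on the plus strand for Retnla, chr3:106167515-106167814 on the minus strand for Chil3, chr14:44102404-44102703 on the plus strand for Ear2 and chr9:71215539-71215838 on the plus strand for Aldh1a2. They are written 5′ to 3′ on the strand of the gene, and capitals mark a place where TTC is followed by GAA with 4 bases between (the spacing known for STAT6) or with 3 bases between (the spacing known for other STAT proteins).
Retnla promoter: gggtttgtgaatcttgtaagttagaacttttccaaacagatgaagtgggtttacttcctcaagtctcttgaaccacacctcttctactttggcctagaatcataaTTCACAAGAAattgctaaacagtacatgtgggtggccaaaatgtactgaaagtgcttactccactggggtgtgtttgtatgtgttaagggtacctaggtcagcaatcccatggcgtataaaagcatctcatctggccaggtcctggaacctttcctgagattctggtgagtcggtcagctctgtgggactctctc
Chil3 promoter: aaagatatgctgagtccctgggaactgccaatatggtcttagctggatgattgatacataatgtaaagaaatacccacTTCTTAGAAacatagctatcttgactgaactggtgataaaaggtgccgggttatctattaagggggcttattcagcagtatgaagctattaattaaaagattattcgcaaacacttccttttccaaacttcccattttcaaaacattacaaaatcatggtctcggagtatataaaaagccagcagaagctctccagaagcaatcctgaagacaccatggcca
Ear2 promoter: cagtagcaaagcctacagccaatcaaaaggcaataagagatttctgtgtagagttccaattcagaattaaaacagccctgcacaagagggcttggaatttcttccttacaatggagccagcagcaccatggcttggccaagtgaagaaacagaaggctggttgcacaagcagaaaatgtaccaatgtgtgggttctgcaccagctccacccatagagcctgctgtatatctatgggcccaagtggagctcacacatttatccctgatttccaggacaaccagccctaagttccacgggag
Aldh1a2 promoter: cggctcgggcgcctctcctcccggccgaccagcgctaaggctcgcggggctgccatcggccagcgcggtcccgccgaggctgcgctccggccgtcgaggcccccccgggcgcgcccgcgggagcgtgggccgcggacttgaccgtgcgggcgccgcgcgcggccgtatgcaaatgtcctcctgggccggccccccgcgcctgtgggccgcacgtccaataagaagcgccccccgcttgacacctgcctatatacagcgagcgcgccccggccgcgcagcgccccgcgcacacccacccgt
Both motifs read the same on either strand, so 1 search covers both, and the same TTC cannot begin both. Retnla held 1 with 4 bases between, which begins at -145 counted from the start of the gene, and 2284 of 32851 promoters of the same length (6.95%) held one. Chil3 held 1 with 3 bases between, which begins at -172, as did 2726 of the 32851 promoters (8.30%). Neither motif was found in the other 4 members with a sequence, in windows that leave out more distant enhancers. The Aldh1a2 stretch was 78.0% G and C, and the other 3 shown were between 38.7% and 48.0%.

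After filters on cells, 5263 cells were left, of which 3702 passed a gate for monocytes and macrophages (Csf1r at 100 CPM or more and Lyz2 at 1000 CPM or more, where CPM is reads of a gene per 1000000 reads of the cell). The gate held 622 cells of WT sham, 528 of CD3e-/- sham, 1192 of WT TAC, 700 of CD3e-/- TAC and 660 of CD8-labelled TAC, with a median depth between 78596 and 129434 reads per cell, lowest in WT sham and highest in CD3e-/- TAC. Gated cells were divided once, in a fixed order, into Saa3-high (32 cells), Lyve1-high (196), Spp1-high (222), Ly6c2-high (512), Cd209a-high (172) and remaining cells (2568). These are ranges of 1 gene, not cell types, and 228 cells lay within 2-fold of the Spp1 limit, 271 of the Ly6c2 limit and 23 of the Saa3 limit. Saa3-high cells numbered 0 in WT sham, 0 in CD3e-/- sham, 2 in WT TAC, 24 in CD3e-/- TAC and 6 in CD8-labelled TAC. The deleted gene, Cd3e, was at 17.8 CPM over all kept cells of WT sham, 3.73 in CD3e-/- sham, 10.8 in WT TAC, 5.64 in CD3e-/- TAC and 13.6 in CD8-labelled TAC, but the share of cells with a Cd3e read did not bear out the label, at 6.90%, 5.03%, 6.38%, 9.03% and 5.70% in that order. Cd3g, another gene of T cells, did, with a read in 53 WT sham and 47 WT TAC cells and in 3 and 1 cells of CD3e-/- sham and TAC. The reads did not bear out the depletion, and were in too few cells to settle it. Cd8b1 was read in 12 of 1615 WT TAC cells (0.743%, 95% exact interval 0.385 to 1.29). In CD8-labelled TAC it was read in 6 of 894 cells (0.671%, 0.247 to 1.46). The authors also counted CD8+ T cells of the heart by flow cytometry, which is not read here. No barcode was shared between hashtags. In all group values below, reads were summed over the gated cells. The intervals of shares cover the counting error of cells, and those of levels only that of reads, which include amplified copies. Neither covers the spread between mice.

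For some genes the deposited matrix held no low counts other than 0, which bears on every share below, and whether the correction of errors had removed them is not given in the sources used here. The lowest count above 0 was 20 reads for Arg1, 9 for Mrc1, 8 for Chil3 and Ear2, 6 for Aldh1a2, and 1 for Retnla and Il4ra. A count of 20 reads is 254 CPM at the median depth of gated WT sham cells and 155 CPM in CD3e-/- TAC, so a cell with less Arg1 than that was mostly listed at 0, the more so the shallower the cell. A cell was called high for a member at 100 CPM or more.

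Arg1 was nearly absent from gated cells of sham hearts and was highest in CD3e-/- TAC. Its level was 4.77 CPM in WT sham, 18.1 in CD3e-/- sham, 186 in WT TAC, 854 in CD3e-/- TAC (interval 849 to 860, for reads alone) and 70.6 in CD8-labelled TAC. All 3 TAC groups were above both sham groups, WT sham was near the 4.19 CPM of B cells, and 84.2% of the Arg1 reads of CD3e-/- sham came from 1 cell. High cells were 0.804% of gated cells in WT sham (interval 0.262 to 1.87), 0.568% in CD3e-/- sham (0.117 to 1.65), 7.05% in WT TAC (5.66 to 8.65), 13% in CD3e-/- TAC (10.6 to 15.7) and 5.61% in CD8-labelled TAC (3.98 to 7.64). Thinned to 30000 reads per cell, the shares of cells with an Arg1 read were 0.843%, 0.789%, 7.33%, 13.4% and 5.75% in the same order. Thinning cannot bring back low Arg1 counts missing from the matrix, so these shares do not take out that effect of depth. Of 429 B cells, 1 was high. Where reads are summed over a group, fewer Arg1 cells and less Arg1 RNA per cell cannot be told apart, so the median of the high cells is given as well. It was 1480 CPM in CD3e-/- TAC, 1061 in WT TAC and 569 in CD8-labelled TAC.

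The class with the most Arg1 reads differed between the TAC groups. In CD3e-/- TAC, 42.9% of all Arg1 reads of the kept cells were in Saa3-high cells, of which 23 of 24 were Arg1-high, at 4585 CPM (3621 without the cell with the most reads). In WT TAC, 47.9% were in Spp1-high cells, where the level was 948 CPM and 25 of 88 cells were high. CD3e-/- TAC had 1037 CPM in its Spp1-high cells, but 581 without 1 cell. Lyve1-high cells of CD3e-/- TAC had 2732 CPM (1421 without 1 cell) with 5 of 15 cells high, while in the same class of WT TAC a single cell held all reads. In CD8-labelled TAC the reads were spread, with 31.0% in the remaining class, 30.0% in Spp1-high and 28.0% in Ly6c2-high cells. By number of cells, WT TAC and CD3e-/- TAC were more alike. The remaining class held the most Arg1-high cells in both, at 37 (38.1%) and 32 (32.7%), with 27.7% and 21.3% of the reads. Without the Saa3-high class, the level was 525 CPM in CD3e-/- TAC and 187 in WT TAC. The most Arg1-rich cells were few, with 14 cells holding 50% of the Arg1 reads of the gate, all of CD3e-/- TAC and 7 of them Saa3-high.

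Saa3, an acute phase protein, and genes of cavity macrophages moved with Arg1 in CD3e-/- TAC. The summed level of 6 markers of cavity macrophages was 37.8 CPM in gated cells of WT sham, 20.4 in CD3e-/- sham (with Cxcl13 and Alox15 at 0), 34.8 in WT TAC, 484 in CD3e-/- TAC and 182 in CD8-labelled TAC. In the 91 Arg1-high cells of CD3e-/- TAC it was 2034 CPM, with Cxcl13 at 639, Fcna at 480.1, Alox15 at 231 and Gata6 at 9.62, and in the 84 Arg1-high cells of WT TAC it was 135 CPM. Saa3 was at 4957 CPM in the former and at 39.3 in the latter. Arg1-high cells were also deeper than other gated cells, with a median of 190088 against 97044.5 reads. The part of cavity macrophages, and of depth, in the difference between the TAC groups was not tested. Without the 5% of cells with the most reads, the log2 ratio of CD3e-/- TAC to WT TAC was 0.97, in place of 2.14.

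Retnla was highest in sham hearts and lowest in CD3e-/- TAC, where Arg1 was highest. Its level was 2027 CPM in WT sham, 2625 in CD3e-/- sham, 325 in WT TAC, 27.9 in CD3e-/- TAC and 155 in CD8-labelled TAC. Every TAC group was below both sham groups. High cells were 12.7% in WT sham (interval 10.2 to 15.6), 14.6% in CD3e-/- sham (11.7 to 17.9), 3.78% in WT TAC (2.77 to 5.02), 2.29% in CD3e-/- TAC (1.31 to 3.69) and 1.82% in CD8-labelled TAC (0.943 to 3.15). The share in B cells, which are not known for Retnla, was 1.40% (0.515 to 3.02) at a lower depth. The intervals of all 3 TAC groups overlapped that of B cells, though WT TAC did so only at its lower end. Whether the 3 shares lay above this background was not tested. Cells at 500 CPM or more were 30 in WT TAC, 4 in CD3e-/- TAC and 5 in CD8-labelled TAC. The Retnla of the high cells differed too, since their median was 3584 CPM in WT sham, 8138 in CD3e-/- sham, 929.5 in WT TAC, 199 in CD3e-/- TAC and 402 in CD8-labelled TAC. In CD8-labelled TAC, 53.4% of the reads came from 1 cell, without which the level was 72.7 CPM.

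A few Retnla reads were spread over most cells. In 58.9% of gated and 38.9% of B cells at least 1 read was found, and after thinning to 30000 reads 28.9% and 25.1%, so a read alone is taken as background here and only high cells are counted. Retnla-rich cells lay mostly in the remaining class, at 2485 CPM in WT sham, 3376 in CD3e-/- sham, 416 in WT TAC, 43.0 in CD3e-/- TAC and 165 in CD8-labelled TAC (27.4 without 1 cell). In Cd209a-high cells, of which 42 were from WT sham and 53 from CD3e-/- sham, the level was 1818 CPM in WT sham, 2029 in CD3e-/- sham, 132 in WT TAC and 5.76 in CD3e-/- TAC, each below the remaining class, and 1189 in CD8-labelled TAC (12.3 without 1 cell). High cells were 9 of 42 Cd209a-high cells (21.4%) in WT sham and 15 of 53 (28.3%) in CD3e-/- sham, against 12.1% and 14.7% of remaining cells, but 2 of 48 (4.17%) in WT TAC and 0 of 8 in CD3e-/- TAC, against 4.36% and 2.82%. Of the 23 cells that held 50% of the Retnla reads of the gate, 18 were from sham hearts.

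The summed level of 5 markers of dendritic cells, nearly all of it H2-Ab1, which macrophages also use, was higher in the sham groups, as Retnla was. Gated cells had 6494.5 CPM in WT sham, 7916 in CD3e-/- sham, 5083 in WT TAC, 4013 in CD3e-/- TAC and 4194 in CD8-labelled TAC. Clec10a, a lectin of the same list, had another order, at 45.9, 52.7, 55.5, 27.1 and 34.2 CPM. Retnla-high cells had 8481 CPM, with H2-Ab1 at 8248, beside 777 CPM of Csf1r, the receptor for a macrophage growth factor. The gate itself required Csf1r. Its mean of cell CPM over all gated cells was 1606, which cannot be set against the 777 CPM, a value from summed reads. Eosinophil markers summed to 15.7 CPM in Retnla-high cells, with Prg2 at 0, against 4.40 in all gated cells. The 5 neutrophil genes summed to 12.9 CPM, with S100a8, S100a9 and Retnlg at 0, against 82.8 in all gated cells. The part of dendritic cells in the lower level of Retnla was not tested.

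Chil3 was higher in the WT group after TAC, and its level was highest in Ly6c2-high cells. Its level was 84.4 CPM in WT sham, 178 in CD3e-/- sham, 292 in WT TAC, 198 in CD3e-/- TAC and 283 in CD8-labelled TAC. By the sum, CD3e-/- sham lay near CD3e-/- TAC, but 49.1% of its reads came from 1 Spp1-high cell, without which it had 91.2 CPM. The share of high cells put all TAC groups above both sham groups, with 5.14% in WT sham (interval 3.55 to 7.19), 9.28% in CD3e-/- sham (6.94 to 12.1), 19.97% in WT TAC (17.7 to 22.4), 19.7% in CD3e-/- TAC (16.8 to 22.9) and 21.1% in CD8-labelled TAC (18.0 to 24.4). Of Ly6c2-high cells, 266 of 512 (52.0%) were Chil3-high, against 7 of 32 Saa3-high, 54 of 222 Spp1-high, 2 of 196 Lyve1-high and 258 of 2568 remaining cells (10.05%). By number, Chil3-high cells were thus about as many in the remaining as in the Ly6c2-high class, and in WT TAC the remaining class held 46.2% of the Chil3 reads and the Ly6c2-high class 43.1%.

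Within Ly6c2-high cells the Chil3 level did not follow the operation. It was 625 CPM in WT sham, 769.5 in CD3e-/- sham, 952 in WT TAC, 457 in CD3e-/- TAC and 753 in CD8-labelled TAC, so that CD3e-/- TAC was lowest. Ly6c2-high cells were 4.18% of gated cells in WT sham, 6.25% in CD3e-/- sham, 12.8% in WT TAC, 23.1% in CD3e-/- TAC and 20.9% in CD8-labelled TAC. Chil3-high cells had a summed 7004 CPM of 4 genes of Ly6c-high monocytes, against 3298 in all gated cells, and 37.9 CPM of 5 neutrophil genes with Retnlg at 0. Reads of Chil4, a close copy of Chil3, were 36 in all kept cells against 109814 of Chil3.

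**Figure D1:**
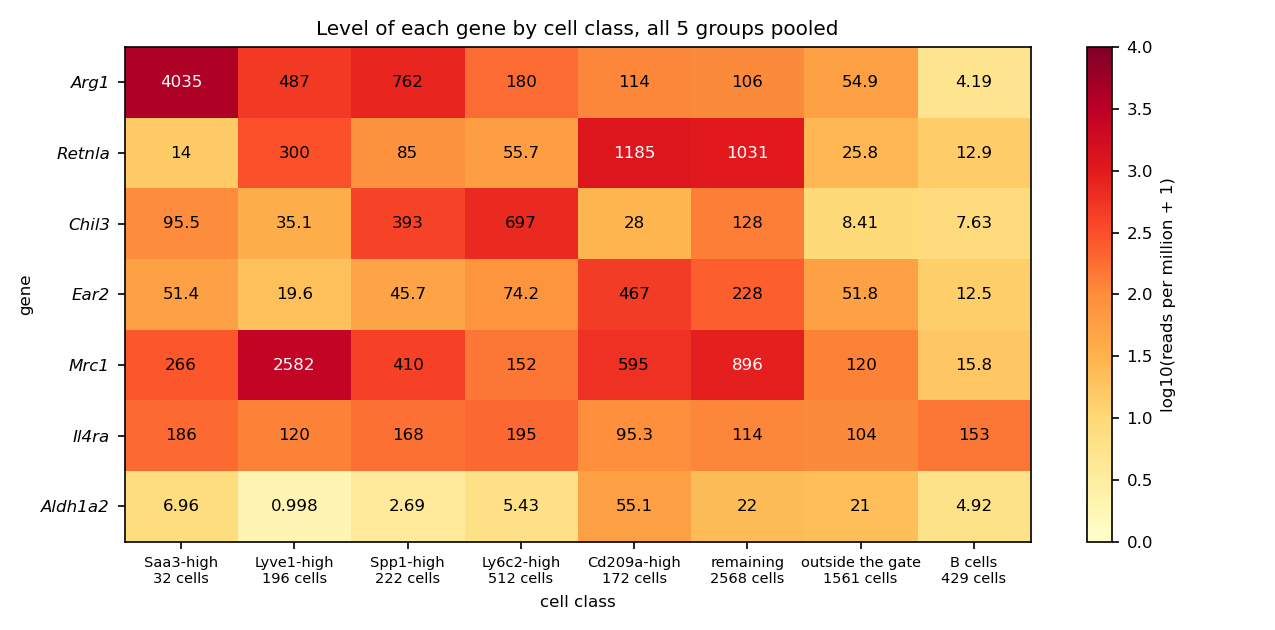
Heat map of the level of each of the 7 genes (rows) in each class of gated cells, outside the gate and in B cells (columns), all groups summed, with the CPM printed in each field and colour on a log10 scale. Arg1 peaks in Saa3-high cells at 4035 CPM, Chil3 in Ly6c2-high cells at 697, Mrc1 in Lyve1-high cells at 2582, and Retnla, Ear2 and Aldh1a2 in Cd209a-high cells, though within 4 of the 5 groups Retnla was lower there than in the remaining class.

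Ear2 and Aldh1a2 were, like Retnla, highest in the sham groups. The Ear2 level was 294 CPM in WT sham, 428 in CD3e-/- sham, 150.5 in WT TAC, 118 in CD3e-/- TAC and 107.5 in CD8-labelled TAC, with both sham groups above all TAC groups. High cells were 15.3%, 24.2%, 11.7%, 12.4% and 10.45% of gated cells in that order, and the counting interval of CD3e-/- sham (20.6 to 28.1) lay above those of the other groups. Of Cd209a-high cells 86 of 172 were high, and their level was above that of the remaining class in each group except CD3e-/- TAC, where it was 100.5 against 188 CPM. The 518 high cells of all classes had 221 CPM of Ace and 82.3 of Treml4, genes known from Ly6c-low monocytes, against 56.5 and 25.4 in all gated cells. Ear1 and Ear10, near-identical copies of Ear2, had 3666 and 1386 reads in the kept cells against 100019 of Ear2, and reads of these copies may have been split between them. The promoters of Ear2 and Ear1 had 268 of 298 bases in common.

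The Aldh1a2 level was 32.3 CPM in WT sham, 57.0 in CD3e-/- sham, 13.4 in WT TAC, 5.37 in CD3e-/- TAC and 7.20 in CD8-labelled TAC. The value of CD3e-/- TAC was near the 4.92 CPM of B cells. The gene rested on few cells, with 28, 42, 30, 14 and 11 high cells in the same order. Cd209a-high cells had 55.1 CPM and 24 of 172 cells high, with the remaining class lower in CD3e-/- sham (55.7 against 119 CPM) and level with them in WT TAC (17.4 against 17.3), and Lyve1-high cells had 0.998 CPM. Outside the gate, 46 cells were Aldh1a2-high, and these had 4194 CPM of Dcn, a gene of fibroblasts. They had 8772 CPM of the dendritic cell list, against 7077 in all cells outside the gate. In the gated Aldh1a2-high cells, 1 of 125 had a Dcn read.

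Mrc1 was high in 2455 of the 3702 gated cells and had its highest level in WT sham. Its level was 1207 CPM in WT sham, 800.5 in CD3e-/- sham, 769 in WT TAC, 544 in CD3e-/- TAC and 815 in CD8-labelled TAC, and no group differed from its control by 2-fold. High cells were 80.4% in WT sham, 75.9% in CD3e-/- sham, 62.6% in WT TAC, 56.9% in CD3e-/- TAC and 62.1% in CD8-labelled TAC. Lyve1-high cells had 2582 CPM and 188 of 196 were high, and Ly6c2-high cells had 152 CPM. Lyve1-high cells were 11.1% of gated cells in WT sham and between 2.14% and 5.68% in the other groups, and 5 markers of resident cardiac macrophages summed to 1372 CPM in WT sham and to between 628 and 811 in the others. The part of these cells in the Mrc1 level was not tested.

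Il4ra, the receptor chain, was higher in all TAC groups than in both sham groups. Its level was 77.3 CPM in WT sham, 64.7 in CD3e-/- sham, 138 in WT TAC, 190.1 in CD3e-/- TAC and 131 in CD8-labelled TAC, and high cells were 21.2%, 21.02%, 40.6%, 51.1% and 37.9% in that order. It was read in every class, from 95.3 CPM in Cd209a-high to 195 in Ly6c2-high cells, and B cells, which are known to use it, had 153 CPM. Within the remaining class the order was the same, with 78.4 CPM in WT sham, 59.7 in CD3e-/- sham, 123 in WT TAC, 170.1 in CD3e-/- TAC and 105 in CD8-labelled TAC.

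**Figure D2:**
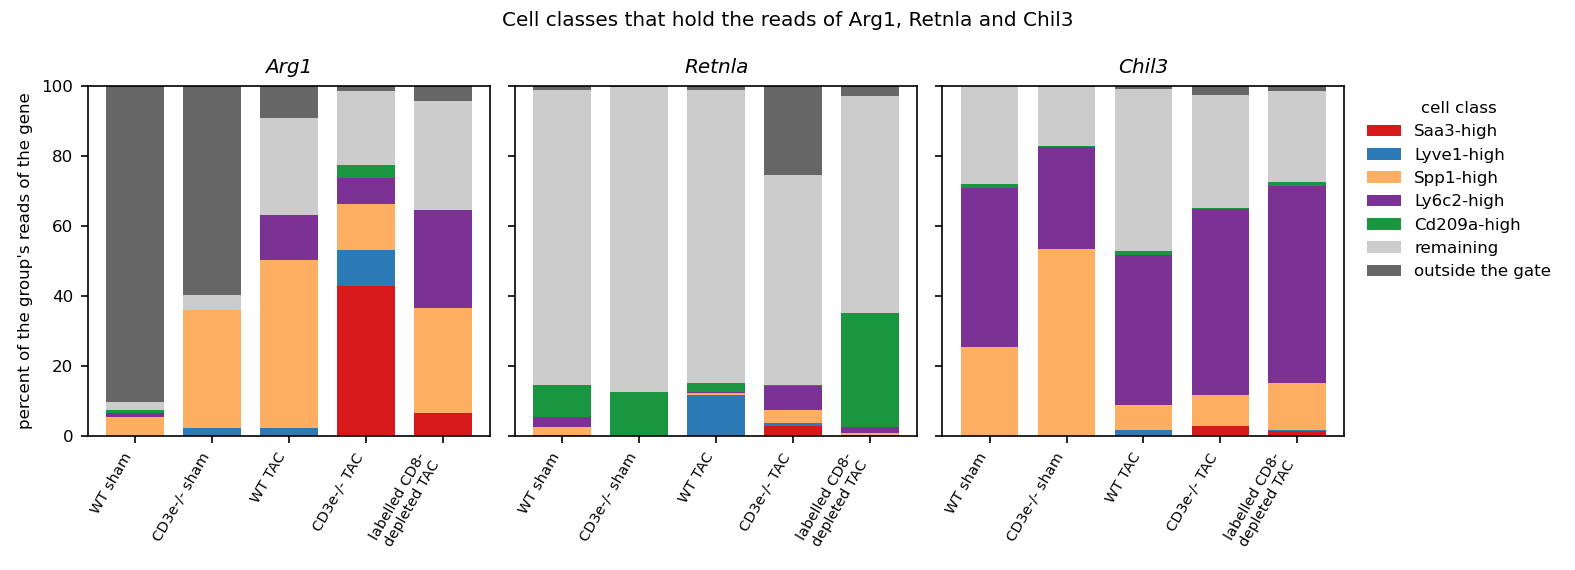
Stacked bars of the percent of the reads of Arg1, Retnla and Chil3 that lie in each class of cells, by group, over all kept cells. In CD3e-/- TAC 42.9% of the Arg1 reads lie in Saa3-high cells, in WT TAC 47.9% lie in Spp1-high cells, and in WT sham 90.3% lie outside the gate.

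Set against all genes, members passed a 2-fold difference as follows, on the log2 scale of CPM plus 10, for genes at 50 CPM or more in either group. In WT TAC over WT sham, 3 of 6 members that reached this level passed, namely Arg1 (3.73) and Chil3 (1.68) higher and Retnla (-2.61) lower, where 2.33% of all 3736 genes passed. Ear2 was at -0.92, Il4ra at 0.76 and Mrc1 at -0.64, and Aldh1a2, at -0.86, did not reach the level. In CD3e-/- TAC over CD3e-/- sham, 5 of 7 passed, with Arg1 (4.94) and Il4ra (1.42) higher and Retnla (-6.12), Aldh1a2 (-2.12) and Ear2 (-1.77) lower, where 4.45% of 3728 genes passed. Aldh1a2 reached the level with 57.0 CPM in sham, and lost its call in 7 of 15 alternatives, among them without the cell with the most reads. Since the members were chosen with these values known, nothing is read from their share. The median over the members was 0.06 in WT and -0.55 in CD3e-/-, against 0.04 and 0.07 over all genes.

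Between genotypes, 0 of 6 members passed in CD3e-/- sham over WT sham, where 0.498% of 3616 genes passed, and Chil3 lay just under the limit at 1.00. Chil3 passed with 1 CPM added in place of 10, and none passed without the cell with the most reads of a member in each group. In CD3e-/- TAC over WT TAC, 2 of 6 passed, with Arg1 higher (2.14) and Retnla lower (-3.14), where 0.707% of 3678 genes passed. In CD8-labelled TAC over WT TAC, 2 of 6 passed, with Arg1 (-1.28) and Retnla (-1.02) lower, where 0.382% of 3661 genes passed. Of these, Retnla rested on a few deep cells, since it was at 0.36 without the 5% of cells with the most reads and at -1.67 without the cell with the most Retnla reads in each group. Chil3 was at -0.54 and -0.04 in these 2 comparisons and Il4ra at 0.43 and -0.08. Both share the WT TAC group, and both TAC and genotype comparisons share the sham groups, so they are not independent of each other.

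Other genes of the pathway were given by lists. Of 14 genes of the interleukin 4 and 13 receptor and its signal, 7 reached 50 CPM in WT. Only Klf4, a transcription factor, passed 2-fold, at 1024 CPM in WT sham and 357 in WT TAC, where 2.33% of all genes passed. In CD3e-/- TAC over sham none of the 7 with enough reads passed, where 4.45% of all genes did. Klf4 (808 to 404 CPM, log2 -0.98) and Kdm6b (232 to 112 CPM) lay just under the limit there. Stat6 was at 118 CPM in WT sham, 114 in CD3e-/- sham, 119 in WT TAC, 122 in CD3e-/- TAC and 124 in CD8-labelled TAC. Il4 and Il13, the cytokines, were read in 47 and 22 of all kept cells.

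Of 16 further alternative activation genes, Tgm2, a transglutaminase, was higher in WT TAC and CD3e-/- TAC, at 26.5 CPM in WT sham, 38.9 in CD3e-/- sham, 162 in WT TAC, 249 in CD3e-/- TAC and 191 in CD8-labelled TAC. Cd163, a scavenger receptor of resident macrophages, was lower in both, at 244, 93.8, 57.4, 34.1 and 93.3 CPM in that order. It also passed as lower in CD3e-/- sham over WT sham (log2 -1.29), where 0.498% of all genes passed. Mgl2, a lectin, was at 802 CPM in WT sham, 819 in CD3e-/- sham, 397 in WT TAC, 138 in CD3e-/- TAC and 335 in CD8-labelled TAC, and passed as lower in CD3e-/- TAC over both its sham and WT TAC. Msr1, a scavenger receptor, passed as higher in CD3e-/- TAC over sham, at 407 against 151 CPM. Ccl17 passed in 3 comparisons, on few cells. In WT TAC over sham, 2 of 7 genes with enough reads were higher and 1 lower, where 2.33% of all genes passed. In CD3e-/- TAC over sham, 2 of 5 were higher and 2 lower, where 4.45% of all genes passed. Of 8 genes of arginine use, the transporter Slc7a2 was at 119.7 CPM in CD3e-/- TAC and between 5.05 and 13.9 in the other groups, while Nos2, which makes nitric oxide from arginine, was at or under 1.41 CPM in all groups. None of the 8 retinoid genes in the matrix passed in any comparison, and Rara alone reached 50 CPM.

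Of the pairs of Arg1, Retnla and Chil3, Arg1 with Chil3 shared the most cells. Of 3702 gated cells, 868 were high for 1 of the genes and 88 (2.38%, interval 1.91 to 2.92) for 2 or more, with 1 cell high for all. Arg1 and Chil3 shared 73 cells, 33.2% of Arg1-high cells (27.0 to 39.8), where 16.1% of all gated cells were Chil3-high. By group, Chil3-high cells were 46.4% of Arg1-high cells in WT TAC (35.5 to 57.6) and 45.9% in CD8-labelled TAC (29.5 to 63.1), where they were 19.97% and 21.1% of gated cells, but 15.4% in CD3e-/- TAC (8.67 to 24.5), where they were 19.7%. Of the 73 cells, 33 were Ly6c2-high, and within that class 60.0% of Arg1-high cells were Chil3-high against 52.0% of all its cells.

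Arg1 and Retnla were both high in 6 cells, 2.73% of Arg1-high cells (interval 1.01 to 5.84), where 6.19% of all gated cells were Retnla-high. That share pools groups that differ, since Arg1-high cells were mostly of TAC hearts and Retnla-high cells mostly of sham hearts. Within CD3e-/- TAC the shares were 2.20% of Arg1-high and 2.29% of gated cells, within WT TAC 1.19% and 3.78%, and within CD8-labelled TAC 5.41% and 1.82%, each from 1 or 2 cells with both. Retnla and Chil3 shared 11 cells, 4.80% of Retnla-high cells (2.42 to 8.43), where 16.1% of gated cells were Chil3-high. By group they were 3 of 79 Retnla-high cells in WT sham, where 5.14% of gated cells were Chil3-high, 2 of 77 in CD3e-/- sham, where 9.28% were, and 3 of 45 in WT TAC, where 19.97% were. Cells high for 2 or more were 5, 4, 43, 17 and 19 in WT sham, CD3e-/- sham, WT TAC, CD3e-/- TAC and CD8-labelled TAC. No doublet caller was run within a hashtag, and the part of doublets in these cells was not tested.

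**Figure D3:**
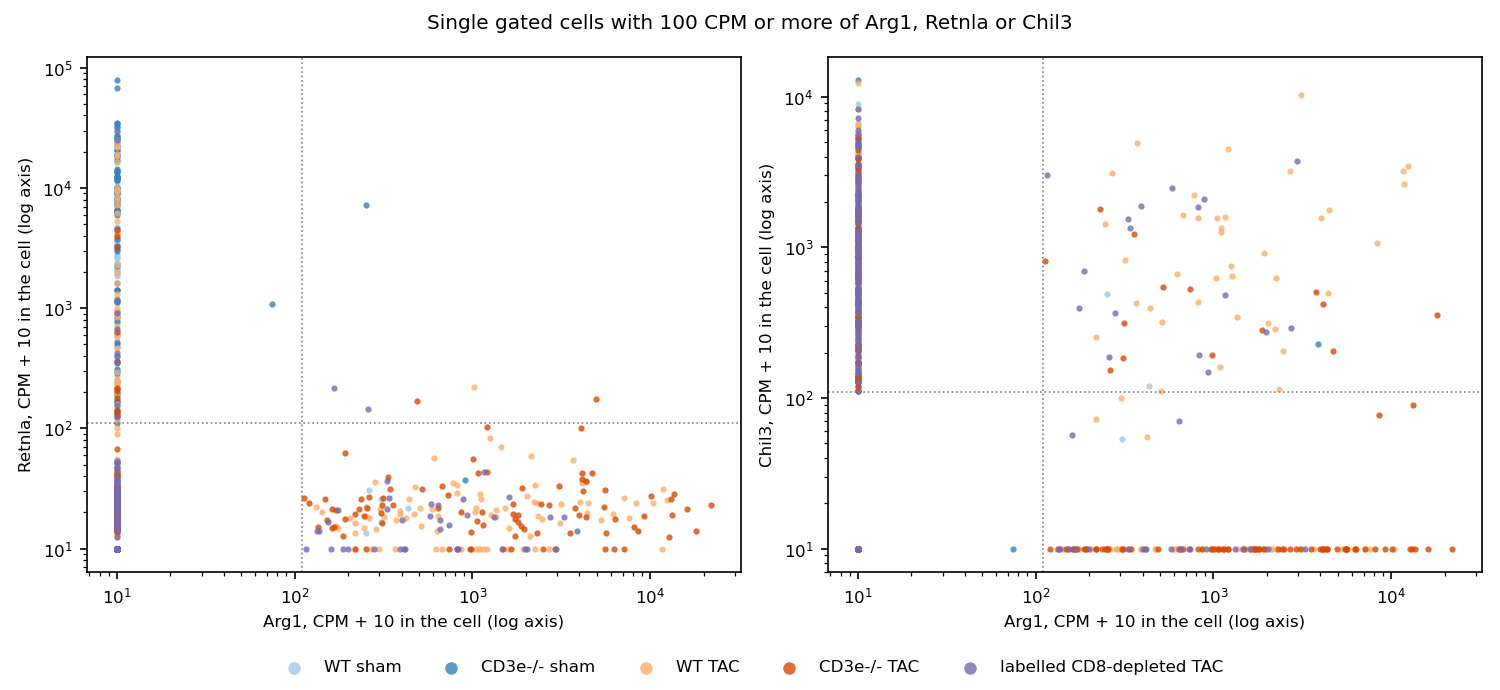
Each point is a gated cell that is high for Arg1, Retnla or Chil3, plotted by its Arg1 level against Retnla (left) and against Chil3 (right) as CPM plus 10 on log axes, with the group in colour and dotted lines at the high level. In the left panel 6 cells, and in the right panel 73, lie in the field where both genes are high.

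Retnla, Ear2 and Aldh1a2 shared more of their high cells. Of 229 Retnla-high cells, 139 (60.7%, interval 54.0 to 67.1) were Ear2-high, where 14.0% of gated cells were, and 69 (30.1%, 24.3 to 36.5) were Aldh1a2-high, where 3.38% were. Of 125 Aldh1a2-high cells, 55.2% were Retnla-high and 67.2% Ear2-high. Ear2 was the widest of the 3, and of its 518 high cells 26.8% were Retnla-high, where 6.19% of gated cells were, and 16.2% Aldh1a2-high. Within each group as well, a larger share of Retnla-high than of gated cells was Ear2-high, from 31.2% against 12.4% in CD3e-/- TAC (5 of 16 cells) to 79.2% against 24.2% in CD3e-/- sham. All 3 were high in 62 cells, of which 18 were of WT sham, 31 of CD3e-/- sham, 7 of WT TAC, 2 of CD3e-/- TAC and 4 of CD8-labelled TAC. Of these, 52 were remaining and 10 Cd209a-high cells. Retnla-high cells had more reads than other gated cells, at a median of 139463 against 98862 and the part of depth was not tested beyond thinning. After thinning to 30000 reads, the same 3 pairs had a correlation of 0.3 or more, but thinning cannot bring back low counts of Ear2 and Aldh1a2 missing from the matrix.

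Across the 3702 gated cells, which share 1 library and differ in depth, 3 of 21 pairs had a Pearson r of 0.3 or more on log2 of CPM plus 10. They were Retnla with Aldh1a2 (0.45), Retnla with Ear2 (0.39) and Ear2 with Aldh1a2 (0.34). Arg1 with Retnla was at -0.02, Arg1 with Chil3 at 0.11 and Retnla with Chil3 at -0.08, and the lowest pair was Chil3 with Mrc1 (-0.42), where 23.8% of Chil3-high cells were Mrc1-high against 66.3% of all gated cells. Il4ra was at 0.14 with Arg1, 0.13 with Chil3 and -0.07 with Retnla. The Retnla pairs were stronger in sham hearts, with Aldh1a2 at 0.47 in WT sham, 0.66 in CD3e-/- sham, 0.27 in WT TAC, 0.13 in CD3e-/- TAC and 0.26 in CD8-labelled TAC. By ranks, in which the many cells with a few Retnla reads count fully, Retnla with Aldh1a2 was at 0.21 and with Ear2 at 0.19.

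**Figure D4:**
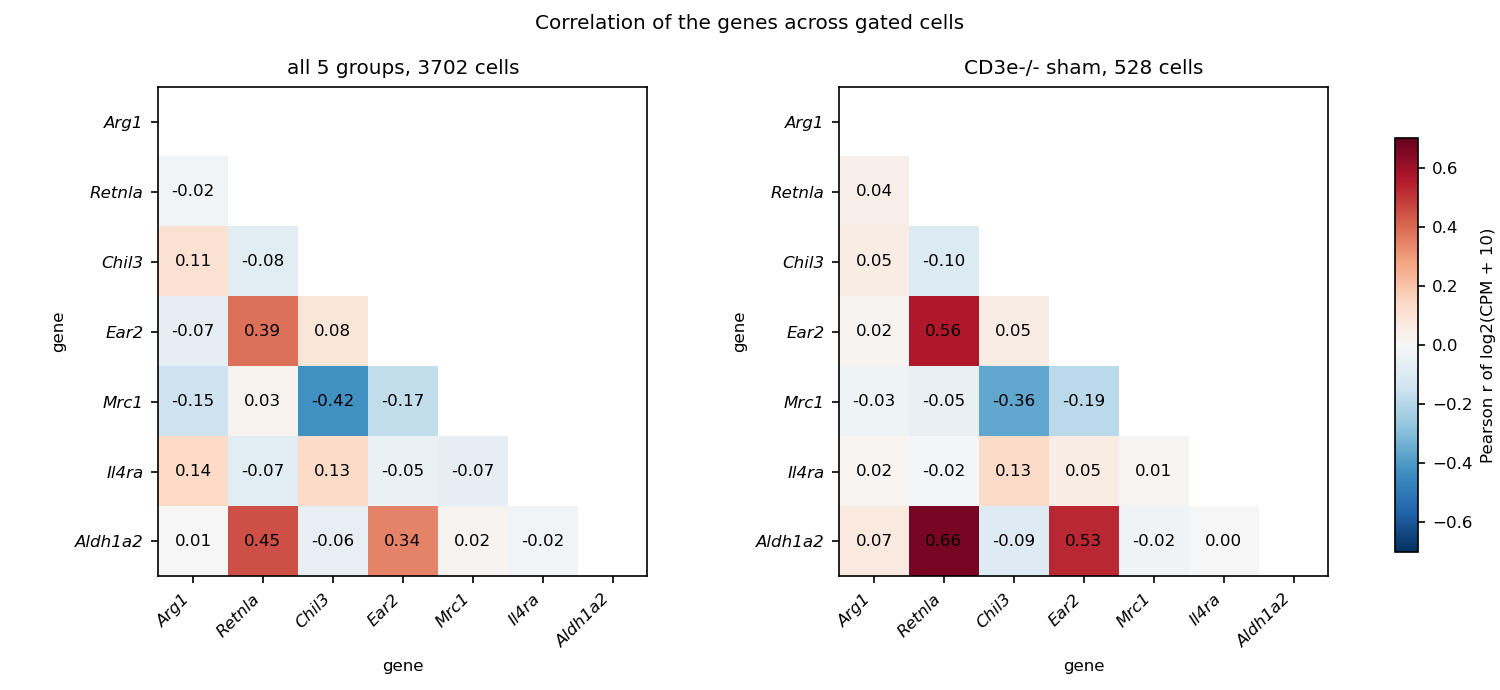
Pearson r of each pair of the 7 genes across the 3702 gated cells of all groups (left) and the 528 of CD3e-/- sham (right), on log2 of CPM plus 10, printed in each field. In the left panel the pairs of Retnla, Ear2 and Aldh1a2 are at 0.34 to 0.45 and Chil3 with Mrc1 is lowest at -0.42, and in the right panel Retnla with Aldh1a2 is at 0.66.

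The genes most like each member, by the same r over 6706 genes at 20 CPM or more, differed between the 3 named first. Like Arg1 were Fn1 (0.37), Ecm1 (0.37), Thbs1 (0.35), Tgm2 (0.34) and Saa3 (0.34), and of these Saa3 was at 0.55 in CD3e-/- TAC and 0.08 in WT TAC while Fn1, which encodes fibronectin, was at 0.50 and 0.40. Like Retnla were Cd226 (0.52), Fgfr1 (0.41), Ear2 (0.39), Mmp12 (0.34) and Tnip3 (0.30), and Cd226, an adhesion receptor, was at 249 CPM in Retnla-high and 13.8 in other gated cells. Like Aldh1a2 were Cd226 (0.48), Retnla (0.45), Fgfr1 (0.36), Ear2 (0.34) and Tnip3 (0.30). Like Chil3 were Plac8 (0.57), Ly6c2 (0.51), Hp (0.49), Gm9733 (0.48) and Ms4a4c (0.45), and the complement genes C1qa, C1qb and C1qc were least like it, between -0.46 and -0.45. Like Ear2 were Ace (0.46), Cd226 (0.44), Ceacam2 (0.39), Napsa (0.39) and Bhlhe40 (0.39). Like Mrc1 were C1qc (0.60), C1qa (0.59), C1qb (0.57), Pf4 (0.56) and Cd81 (0.55). Il4ra had no gene above Ms4a6d (0.24).

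In sham hearts, most Arg1 reads lay outside the gate. In WT sham 90.3% and in CD3e-/- sham 59.8% of all Arg1 reads lay outside the gate, against 9.09% in WT TAC, 1.32% in CD3e-/- TAC and 4.30% in CD8-labelled TAC. The 75 Arg1-high cells there were 29, 21, 13, 7 and 5 by group in the same order. Of these, 60 had a read of Gata3 or Il1rl1, a transcription factor and a receptor known from type 2 innate lymphoid cells. They were 28 of 29 in WT sham and 21 of 21 in CD3e-/- sham, but 5 of 13 in WT TAC, 3 of 7 in CD3e-/- TAC and 3 of 5 in CD8-labelled TAC. An Il1rl1 read alone was not particular to such cells, since 632 of the 953 kept cells with one were gated. Gata3 was read in 56 of the 75 cells, and 14 of the 156 kept cells with a Gata3 read were gated. Over all 75 cells, mostly of sham hearts, the level was 601 CPM for Gata3, 628 for Il1rl1, and 599 for Rora, which are genes of that list. Areg was at 446 CPM. All cells outside the gate had 139 CPM of 5 T cell genes, and gated cells had 14.4. These 75 cells had 63.5 CPM, with Cd8a and Cd8b1 at 0. Il13 was read in 3 of them and Il4 in 2, and Lyz2 in 12, of which 8 were among the 13 of WT TAC. Csf1r was read in 52, of which 18 were among the 29 of WT sham, but it was also read in 4952 of all 5263 kept cells.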

How the data were processed

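The authors deposited raw counts, that is reads per gene and cell barcode, of 1 library made with BD Rhapsody beads and the TAS-Seq protocol. Per the submitters' processing notes and the methods, reads were trimmed with cutadapt 2.10 and mapped with Bowtie2 2.4.2, the build named is GRCm38, barcodes above an inflection point were kept and errors were corrected by the distribution of reads. There were no molecular identifiers in these counts, so amplified copies of 1 molecule count as separate reads. Intervals and floors on reads therefore do not cover the counting error of molecules, nor the spread between mice.

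Of 5363 columns, 40 called doublets and 8 with no hashtag by the authors were left out. Kept cells had 500 genes or more and no more than 0.4 of their reads from mitochondrial genes, and kept genes were read in 5 or more cells. The groups came from the hashtags as described in the labels. Total reads of kept cells were between 91899777 and 208758777 per group. Reads were summed per group or class and divided by total reads (CPM). Gates were, in order, Saa3 1000, Lyve1 200, Spp1 1000, Ly6c2 500 and Cd209a 200 CPM, and B cells had Cd79a at 500 CPM or more and Csf1r under 100 CPM. Shares have exact Clopper-Pearson and reads exact Poisson intervals at 95%. No test was run, as each group was 1 sample. Scripts used matplotlib (3.10.9) for plots, pandas (2.3.3), scipy (1.17.1) and numpy (2.4.6) under Python 3.11.15, and were tested on simulated data.

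The members, gates and gene lists were chosen with earlier results of these data known. Genes named were the 7 members, the 5 genes most like each by Pearson r, the gate genes, and list genes past 2-fold or needed to read a member.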

Additional observations from a re-analysis of the deposited data

Results flagged for a closer look

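Ccl17, a chemokine of the list of further alternative activation genes, moved in opposite directions after TAC in the 2 genotypes, with a log2 ratio of TAC over sham of 2.321 in WT and -1.584 in CD3e-/-. The difference was not tested. It rested on 4 cells with a read in WT sham, 11 in CD3e-/- sham, 14 in WT TAC and 6 in CD3e-/- TAC, and 5861 of the 10313 reads of WT TAC came from 1 cell.

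Members were also read in the columns left out of all comparisons, above their highest level in all kept cells of a sham group. In the 8 columns with no hashtag, Arg1 was at 302.1 CPM (sham 31.9), Chil3 at 331.9 (sham 126.6) and Mrc1 at 1180 (sham 805.5), with a read in 2, 2 and 5 of the columns. In the 40 columns called doublets, Arg1 was at 42.18 CPM, from 2 columns, and Il4ra at 162.7 (sham 78.96), from 27 columns.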

How the results depend on the processing

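No paired analysis was possible because each group was 1 sample, and for the same reason no replicate was left out. Of 101 repeats of the 7 main counts and shares, 84 stayed within their limits and 17 moved. Of 292 repeats for single members, pairs and classes, 272 stayed, 19 moved and 1 reversed. Alternatives that leave out the cell with the most reads of a member, keep only cells at 500 CPM or more, or set the high level at 500 CPM were chosen after seeing the data.

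With a minimum of 200 CPM, members past 2-fold in CD3e-/- TAC over CD3e-/- sham were 3 in place of 5, without Il4ra and Aldh1a2. Aldh1a2 alone lost its call there, leaving 4, with the gate levels doubled, without the deepest 5% of cells, by the mean of cell CPM, with 50 CPM added, without the cell with the most reads, and with only cells at 500 CPM or more. In CD3e-/- sham over WT sham there was 1 (Chil3) in place of 0 with the gate levels halved or doubled, without gated cells that had Cd79a or Cd3g, with 1 CPM added, and with only cells at 500 CPM or more. In CD3e-/- TAC over WT TAC there was 1 in place of 2 without the 5% of cells with the most reads. In CD8-labelled TAC over WT TAC there was 1 in place of 2 with the gate levels doubled, without the deepest 5% of cells, without Saa3-high cells, by the mean of cell CPM and with the 200 CPM minimum, and 0 with 50 CPM added. Retnla reversed there to 0.3584 without the deepest 5% of cells. Pairs at r of 0.3 or more were 1 by ranks and 0 in WT TAC cells alone, in place of 3. Cells high for 2 or more of Arg1, Retnla and Chil3 were 1.783% at 200 CPM and 0.7834% at 500 CPM, in place of 2.377%. The class with the highest Il4ra became Saa3-high (197.9 CPM) with class limits halved. The cause of these moves was not tested.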
